A study of Homo sapiens with 6 samples.

Results

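The 10 heat shock proteins described here are HSPA1A, HSPA1B, HSPA8, DNAJB1, HSPH1, HSP90AA1, HSPB1, BAG3, HSPE1 and HSPD1, cytosolic and mitochondrial chaperones or cochaperones whose genes are known targets of the heat shock transcription factor HSF1. They were taken by gene symbol from the 32192 genes of the count table and the 31951 genes of the FPKM table, and each symbol had 1 row in both. RNA was measured in A549 cells, an established line from a human lung adenocarcinoma, transfected with a plasmid that expresses APEX1 (APEX1-OE, 3 libraries) or with the control plasmid (Ctrl, 3 libraries), so that the cells of both groups had been through a transfection. APEX1, a DNA repair endonuclease that is also counted among the RNA-binding proteins, was expressed from the vector pIRES-hrGFP-1a, and the sources used here do not give the time between transfection and RNA extraction. The libraries were stranded, paired-end mRNA libraries, and the methods say in general that experiments were repeated, without saying whether the replicate libraries came from separate cultures. The p values measure the spread between these libraries, which may be in part technical. The design asks whether the level of a gene differed between APEX1-OE and Ctrl.

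Heat shock proteins keep other proteins folded. When unfolded proteins pile up, HSF1 is released from the chaperones that hold it, forms trimers and binds heat shock elements, which are repeats of the short unit GAA in alternating orientation, in front of chaperone genes. HSP70 proteins bind exposed stretches of unfolded proteins and use ATP to release them, J-proteins such as DNAJB1 bring the substrate and start the cycle, and nucleotide exchange factors such as HSPH1 and BAG3 end it. HSP90 acts later on kinases and receptors, HSPB1 holds unfolded proteins in oligomers without ATP, and HSPD1 and HSPE1 form the folding chamber of mitochondria. Cancer cell lines commonly hold high levels of several of these mRNAs without heat.

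Heat shock elements in front of these genes are printed here because they are the sequence by which the members are linked to HSF1. All 10 members were found in the RefSeq promoter table (GRCh38.p14) with 14 annotated starts, and the 250 bases before each start were searched for GAANNTTC or TTCNNGAA, that is 2 adjacent units, where N is any base. Each pattern reads the same on both strands, and overlapping matches were joined to 1 site. In each line the units and the bases between them are in capitals, and the 8 bases on either side, or fewer at the end of the window, are in lower case.
HSPA1A, chr6:31815429-31815452, plus strand: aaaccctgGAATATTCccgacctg
HSPA1B, chr6:31827625-31827648, plus strand: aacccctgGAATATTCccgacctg
HSPA8, chr11:123062346-123062374, minus strand: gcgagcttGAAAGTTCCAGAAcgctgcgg
HSPA8, chr11:123062171-123062199, minus strand: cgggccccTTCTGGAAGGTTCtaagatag
DNAJB1, chr19:14518459-14518482, minus strand: gcggggcgGAAGGTTCtggagggg
DNAJB1, chr19:14518429-14518452, minus strand: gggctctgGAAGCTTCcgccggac
HSP90AA1, chr14:102087112-102087140, minus strand: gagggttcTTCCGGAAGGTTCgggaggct
HSP90AA1, chr14:102087097-102087120, minus strand: cgggaggcTTCTGGAAaaagcgcc
HSPB1, chr7:76302483-76302506, plus strand: taacgagaGAAGGTTCcagatgag
HSPD1, chr2:197500060-197500090, minus strand: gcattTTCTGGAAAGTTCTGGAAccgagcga
HSPA1A and HSPA1B had the same 8 capital letters at nearly the same distance, with the last base of the match 99 and 98 bases before the start. The sites of HSPA8 had 3 units each and ended 218 and 43 bases before its start. HSP90AA1 had a site of 3 units that ended 76 bases before the start of its reference transcript, followed by a site of 2 units. DNAJB1 had sites of 2 units that ended 70 and 40 bases before its start. HSPD1 had a run of 4 units that ended 228 bases before its start, and the site of HSPB1 ended 175 bases before its start. At least 1 match was found for 7 of the 10 members and in 7 of their 14 promoters, against 11.6% of the 35116 promoters in the table. Matches with 3 or more units were found in 3 of the 14 member promoters, against 0.441% of all promoters. These members were listed as HSF1 targets to begin with, so these shares are a description. For HSPH1, BAG3 and HSPE1 these letters are not in the windows searched, and the window of HSPH1 belongs to another start than that of its reference transcript. The site printed for HSPD1 also lies before the start of HSPE1, at chr2:197500379 on the other strand. It falls outside the window of HSPE1, which begins at chr2:197500129.

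The libraries held between 28131955 and 41009197 counts. APEX1 was at 1272, 1185 and 1300.2 CPM (read counts scaled to library size, with edgeR's TMM normalisation) in the APEX1-OE libraries, replicates 1, 2 and 3, and 244, 243 and 214 CPM in the Ctrl libraries, and the gene was called (log2 fold change 2.42, adjusted p = 0.00809, edgeR), a call that was lost without APEX1-OE replicate 2 or 3 or without Ctrl replicate 1 or 2. The first principal component, with 72.6% of the variance in log2 CPM, divided the libraries otherwise than the conditions do. Replicate 1 of APEX1-OE fell together with replicates 1 and 2 of Ctrl, here called side A, and replicates 2 and 3 of APEX1-OE fell together with replicate 3 of Ctrl, here called side B. The sides were the same when the heat shock proteins and 63 other chaperone genes were left out. These are a small part of the 16971 tested genes, so the sides could hardly have changed. Among epithelial markers, KRT8 had at least 251413 counts in every library, KRT18, KRT19 and CDH1 were also detected, but EPCAM had only 15 to 47 counts. Of markers of other cells, PTPRC had at most 1 count in a library, COL1A2 at most 1, PECAM1 at most 10 and COL1A1 at most 188, and the alveolar type II markers SFTPC and SFTPB had at most 7 each.

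In Ctrl cells the mRNAs of the heat shock proteins spanned a wide range of levels per transcript length. The authors' FPKM (fragments scaled to transcript length and library size) was highest for HSPB1 at 701 ± 132 (SD, n = 3) and for HSPA8, the constitutive HSP70, at 346 ± 49.7. HSPE1 at 119.6 ± 7.16, HSPD1 at 106 ± 41.5 and HSP90AA1 at 96.2 ± 40.9 FPKM followed. DNAJB1 at 73.3 ± 4.84, HSPA1A at 52.9 ± 8.17, BAG3 at 42.2 ± 2.08 and HSPA1B at 33.7 ± 1.44 FPKM were lower, and HSPH1 at 6.86 ± 3.53 FPKM was the lowest member. In this order the ranges of the 3 Ctrl libraries overlapped between HSPE1 and HSPD1, HSPD1 and HSP90AA1, HSP90AA1 and DNAJB1, and HSPA1A and BAG3, and not between the other neighbours. In APEX1-OE the order was the same but for HSPE1, whose 114 ± 33.7 FPKM lay after HSPD1 at 130.3 ± 65.6 and HSP90AA1 at 122 ± 65.9, with ranges that overlapped between these neighbours. Only uniquely mapped reads gave the FPKM. Of the windows of 150 bases, 69.6% of the HSPA1A transcript and 66.1% of the HSPA1B transcript occur in the other gene. The FPKM of these genes may therefore be too low, and their places among the members are uncertain in both groups. The sources used here do not give the transcript lengths behind the FPKM. HSPA1A, HSPA1B and DNAJB1, whose genes respond strongly to heat, were thus well detected in cells that the labels do not describe as heated. HSPA6, a strictly inducible HSP70 that was singled out after its values were seen, had between 21 and 52 counts in a library.

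**Figure D1:**
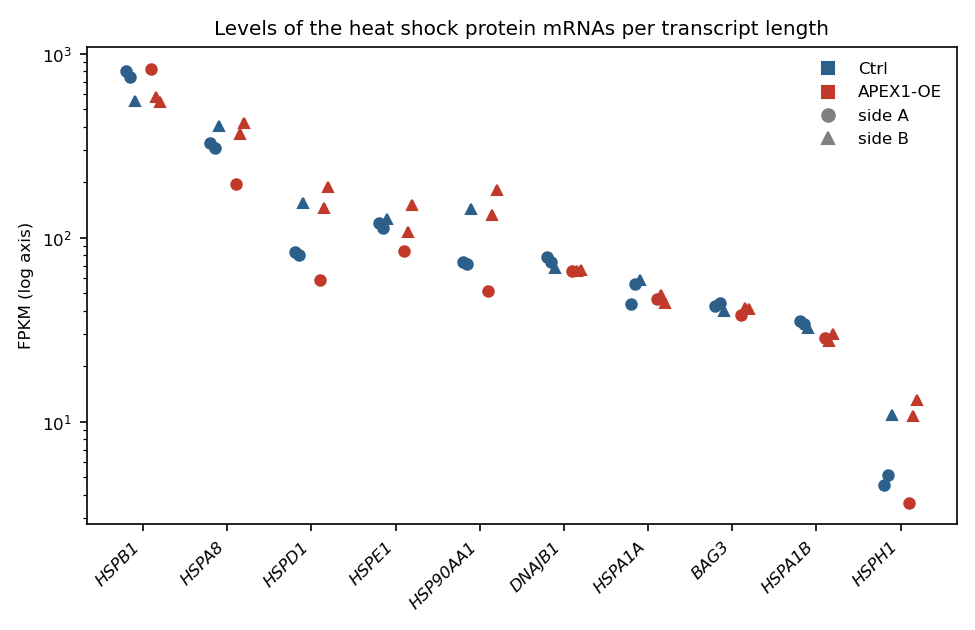
FPKM of each heat shock protein (log axis) in the 3 Ctrl (blue) and 3 APEX1-OE (red) libraries, 1 point per library, with circles for side A and triangles for side B of the first principal component. HSPB1 and HSPA8 lie highest and HSPH1 lowest, and the points of HSPH1, HSP90AA1 and HSPD1 spread over more than 3-fold while those of BAG3 and DNAJB1 stay within 1.19-fold.

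No heat shock protein was called in APEX1-OE against Ctrl. All 10 members passed the filter on low counts, and 0 of 10 had an adjusted p under 0.05 in edgeR's quasi-likelihood test, against 1 of the 16971 tested genes, APEX1 itself (0.00589%). An unadjusted p below 0.05 was reached by 0 of 10, against 118 of the 16971 tested genes. Few genes of any kind reached it in this fit, so the 0 is not particular to the members. DESeq2 and limma on log2(FPKM + 1) called 0 of 10 as well, with 0 and 2 of them at an unadjusted p below 0.05. These 2 were HSPA1B and DNAJB1, beside 641 of the 31951 genes in that limma fit. With limma on log2(FPKM + 0.1), 0 of 10 were called or had an unadjusted p below 0.05. The log2 fold changes lay between -0.25 and 0.37, with 3 positive, 7 negative and a median of -0.10, beside a median of 0.03 over all tested genes. The adjusted p was 1.0 for each member, and all 10 confidence intervals held 0. These are levels in bulk RNA, in which a change in fewer cells and a smaller change in every cell cannot be told apart. The groups did not overlap in CPM for 0 of the 10 members, against 3.39% of all tested genes.

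The genes of the inducible HSP70, HSPA1A (ENSG00000204389.9, chr6:31815543-31817946, plus strand) and HSPA1B (ENSG00000204388.6, chr6:31827738-31830254, plus strand), each have 1 exon and encode the same protein of 641 residues. Their coding sequences differ at 4 of 1926 positions, and of the windows of 150 bases, the read length, 69.6% of the HSPA1A transcript and 66.1% of the HSPA1B transcript occur letter for letter in the other gene. Only uniquely mapped reads were counted, so these counts rest largely on the parts of the transcripts that differ, and the division between both genes is uncertain. HSPA1A was at 158, 141 and 124 CPM in APEX1-OE replicates 1, 2 and 3 and 137, 179.5 and 169 CPM in Ctrl replicates 1, 2 and 3. The groups overlapped, with the lowest Ctrl library below 2 of the 3 APEX1-OE libraries. HSPA1B was at 98.7, 80.5 and 85.6 CPM in APEX1-OE replicates 1, 2 and 3 and 112, 109 and 93.9 CPM in Ctrl replicates 1, 2 and 3, and of the Ctrl libraries only replicate 3 lay within the range of APEX1-OE. The log2 fold change was -0.20 (95% confidence interval -0.65 to 0.25) for HSPA1A and -0.25 (95% confidence interval -0.68 to 0.17) for HSPA1B. When both genes were summed in 1 row, it was -0.22 (standard error 0.176, edgeR adjusted p = 1.0), and HSPA1A made up between 55.03% and 64.3% of the sum.

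HSPA8 (ENSG00000109971.13, chr11:123057489-123063230, minus strand), the constitutive HSP70 of the cytosol, was at 725, 1145 and 1283 CPM in APEX1-OE replicates 1, 2 and 3 and 1116, 1072 and 1254 CPM in Ctrl replicates 1, 2 and 3. APEX1-OE replicate 1 stood below the other 5 libraries, which lay within 1072 to 1283 CPM. The mean was 1051 ± 291 CPM in APEX1-OE against 1147 ± 94.8 CPM in Ctrl (SD, n = 3 each), and the log2 fold change was -0.13 (95% confidence interval -0.67 to 0.42). Without APEX1-OE replicate 1 it was 0.07, so the negative sign rests on that library. DNAJB1 (ENSG00000132002.7, chr19:14514769-14560391, minus strand), the J-protein partner of HSP70, was at 222, 187 and 184 CPM in APEX1-OE replicates 1, 2 and 3 and 242, 232 and 193 CPM in Ctrl replicates 1, 2 and 3, with a log2 fold change of -0.17 (95% confidence interval -0.59 to 0.25). The groups of DNAJB1 overlapped, and the side B libraries were the lowest in each group.

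HSPH1 and BAG3 release ADP from HSP70, and HSPH1 is itself a large relative of HSP70, while BAG3 leads bound proteins to autophagy. HSPH1 (ENSG00000120694.19, chr13:31134973-31162388, minus strand) was at 28.3, 70.6 and 84.3 CPM in APEX1-OE replicates 1, 2 and 3 and 32.6, 37.5 and 71.6 CPM in Ctrl replicates 1, 2 and 3. Its 3 side B libraries lay between 70.6 and 84.3 CPM and its 3 side A libraries between 28.3 and 37.5 CPM, whatever the condition. The mean was 61.1 ± 29.2 CPM in APEX1-OE against 47.2 ± 21.2 CPM in Ctrl (SD, n = 3 each), with SDs larger than the difference, and the log2 fold change was 0.37 (95% confidence interval -0.66 to 1.41). BAG3 (ENSG00000151929.9, chr10:119651380-119677819, plus strand) was the steadiest member, at 134, 125 and 119 CPM in APEX1-OE replicates 1, 2 and 3 and 138, 146 and 119 CPM in Ctrl replicates 1, 2 and 3. Its log2 fold change was -0.09 (95% confidence interval -0.50 to 0.32), and the SD of its log2 CPM over the 6 libraries was 0.12, against 0.68 for HSPH1.

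HSP90AA1 (ENSG00000080824.18, chr14:102080742-102139699, minus strand), the inducible cytosolic HSP90, was at 285, 626 and 829.5 CPM in APEX1-OE replicates 1, 2 and 3 and 376, 371 and 667 CPM in Ctrl replicates 1, 2 and 3. As for HSPH1, the values divided by side and not by condition. The log2 fold change was 0.30 (95% confidence interval -0.63 to 1.23), and its sign turned to negative without APEX1-OE replicate 3. HSPB1 (ENSG00000106211.8, chr7:76302673-76304295, plus strand), the small heat shock protein, showed the opposite division, at 1209, 719 and 656 CPM in APEX1-OE replicates 1, 2 and 3 and 1077, 1022 and 676 CPM in Ctrl replicates 1, 2 and 3. Its side A libraries were the high ones, and its log2 fold change between the conditions was -0.10 (95% confidence interval -0.78 to 0.57), which turned positive without APEX1-OE replicate 2, APEX1-OE replicate 3 or the first Ctrl replicate. The SDs of HSPB1, in 861 ± 303 CPM in APEX1-OE against 925 ± 217 CPM in Ctrl (SD, n = 3 each), were larger than the difference between the means.

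HSPD1 (ENSG00000144381.16, chr2:197486584-197516737, minus strand) and HSPE1 (ENSG00000115541.10, chr2:197500140-197503449, plus strand) lie head to head and encode the HSP60 and HSP10 of mitochondria, which work as 1 machine. HSPD1 was at 207, 435 and 545 CPM in APEX1-OE replicates 1, 2 and 3 and 270.2, 268 and 457 CPM in Ctrl replicates 1, 2 and 3, with a log2 fold change of 0.26 (95% confidence interval -0.61 to 1.12) that turned negative when replicate 3 of APEX1-OE was left out. HSPE1 was at 121, 129 and 177 CPM in APEX1-OE replicates 1, 2 and 3 and 157, 149 and 150.4 CPM in Ctrl replicates 1, 2 and 3, with a log2 fold change of -0.10 (95% confidence interval -0.57 to 0.37). The 3 Ctrl libraries of HSPE1 lay close together while those of HSPD1 divided by side, so that the ratio of both partners was not constant over the libraries. Some exon bases of HSPE1 are shared with the readthrough gene HSPE1-MOB4 on the same strand and with HSPD1 on the other, 327 bases in all in GENCODE release 44. Pseudogene copies could also share reads, and GENCODE names 26 for HSPE1, 18 for HSPD1, 17 for HSPA8 and 5 for HSP90AA1. The annotation also has exon bases of HSPA1B under an unnamed gene on the same strand (920 bases), of HSPA8 under another unnamed gene on the other strand and SNORD14C and SNORD14D on its own (730 bases), of DNAJB1 under TECR and MIR639 on the other strand (561 bases), and of HSP90AA1 under WDR20 on the other strand (197 bases). Of the pseudogene copies, the count table held 6 for HSPE1, 5 for HSPD1, 4 for HSPA8 and 3 for HSP90AA1. Copies in the table held at most 0.131% of the counts of their parent gene in any library. With only uniquely mapped reads counted, this does not show how many reads the parent genes lost.

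**Figure D2:**
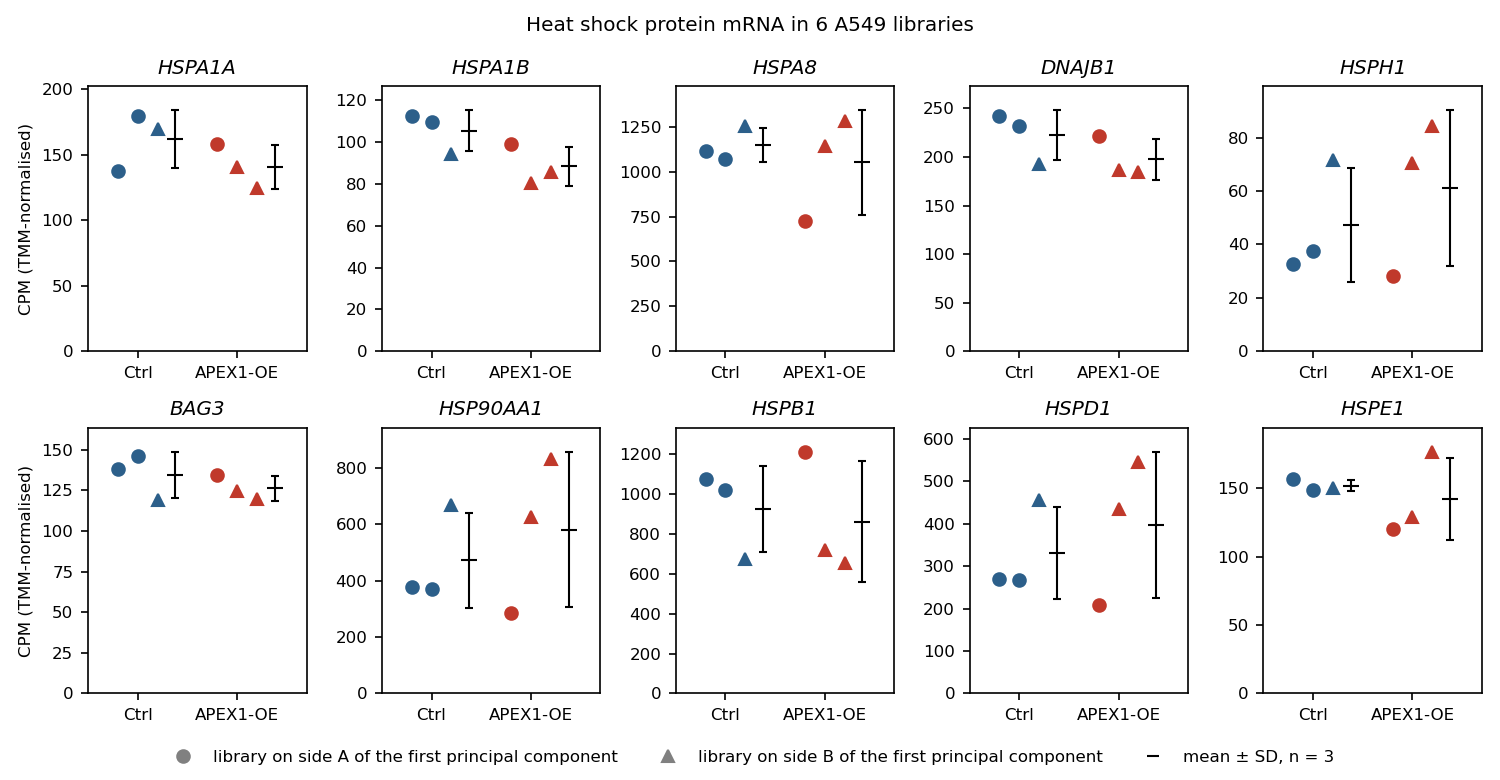
CPM of each heat shock protein in the 3 Ctrl (blue) and 3 APEX1-OE (red) libraries, with circles for side A and triangles for side B of the first principal component and bars for the mean ± SD of each group (n = 3). In HSPH1, HSP90AA1 and HSPD1 every triangle lies above every circle, in HSPB1 below, and in no panel do the groups separate.

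In the authors' FPKM, which are scaled by another total than the CPM, the groups of HSPA1B and DNAJB1 did not overlap. HSPA1B was at 28.4, 27.4 and 29.9 FPKM in the APEX1-OE replicates 1, 2 and 3, against 35.1, 33.7 and 32.2 FPKM in the Ctrl ones. DNAJB1 was at 65.7, 65.4 and 66.5 FPKM in APEX1-OE and at 78.0, 73.6 and 68.3 FPKM in Ctrl. In both genes every APEX1-OE library lay below every Ctrl library, with ratios of means of 0.848 and 0.898. The exact two-sided permutation test of log2(FPKM + 1) gave p = 0.1 for each, the smallest p that 3 libraries against 3 allow, and p between 0.4 and 0.9 for the other 8 members. These are 2 of 10 members with lower APEX1-OE libraries and no overlap, beside 1.77% of the tested genes, and since the members were chosen with earlier results known and limma on the same scale called neither gene, the count is a description.

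While the conditions overlapped for all 10 heat shock proteins in CPM, the sides of the first principal component did not overlap for 8 of them. In log2 CPM, side B minus side A, the difference was 1.21 for HSPH1, 1.04 for HSP90AA1, 0.95 for HSPD1 and 0.36 for HSPA8, 4 members that were higher on side B. It was -0.69 for HSPB1, -0.30 for HSPA1B, -0.30 for DNAJB1 and -0.21 for BAG3, 4 members that were lower there. The sides of HSPA1A at -0.13 and HSPE1 at 0.10 overlapped, and the sign of HSPA1A turned when the CPM were scaled by total counts (0.04) or the FPKM were used (0.05). The sides come from these same counts, so the differences have no test, and 35.5% of all tested genes lay higher on side B without overlap and 30.9% lower. The other members that were lower on side B moved toward 0 in those scalings, to -0.13 (total counts) and -0.11 (FPKM) for both HSPA1B and DNAJB1, to -0.03 and -0.02 for BAG3 and to -0.51 and -0.50 for HSPB1. The median side difference over all tested genes was 0.03 with TMM, 0.20 with total counts and 0.18 with FPKM. In FPKM the sides did not overlap for 5 members, 4 higher and 1 lower on side B, beside 42.2% and 21.2% of the tested genes.

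The members with less than 50% GC in their exons all had positive side differences, and those with more than 55% all had negative ones with the TMM scaling, while HSPA1A was positive with total counts or FPKM. HSPH1, with 38.1% GC over its annotated exons, HSPD1 with 42.3% and HSP90AA1 with 45.5% had the largest positive differences. HSPB1, with 63.6%, had the largest negative one. Over all tested genes the median side difference was 0.88 for genes with at most 40% GC, 0.60 from 40% to 45%, 0.17 from 45% to 50%, -0.22 from 50% to 55%, -0.45 from 55% to 60% and -0.61 above 60%. By the GC content of all annotated exons, HSP90AA1 at 1.04 lay above the 90th percentile of its class, 0.76. The other 9 members lay between the 10th and the 90th percentile of theirs. The reference transcript of HSP90AA1, with 41.6% GC, falls in the class from 40% to 45%, where 1.04 is below the 90th percentile, 1.103. That of HSPE1, with 39.3%, falls in the class of at most 40%, where its 0.095 is below the 10th percentile, 0.288. The percentiles come from the GC content of all annotated exons, so neither gene is read as an exception to its class. With the part that follows GC content and exon length taken out by a spline, the side difference fell to 0.33 for HSPH1 and 0.30 for HSPD1 and was -0.06 for HSPB1. It remained at 0.70 for HSP90AA1, where the 10th and the 90th percentile of all tested genes were -0.43 and 0.45. The spline also used the GC content and length of all annotated exons, which for HSP90AA1 are 45.5% and 5097 bases. Its reference transcript has 41.6% and 3228 bases. What would remain with these values was not computed, so the 0.70 is not read as a trait of this gene. With the same offset 4 members changed sign, HSPA1A to 0.41, BAG3 to 0.23, HSPA1B to 0.21 and HSPE1 to -0.0138. HSPA8 was at 0.31 and DNAJB1 at -0.08. The part of GC content in the side differences was not tested further.

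**Figure D3:**
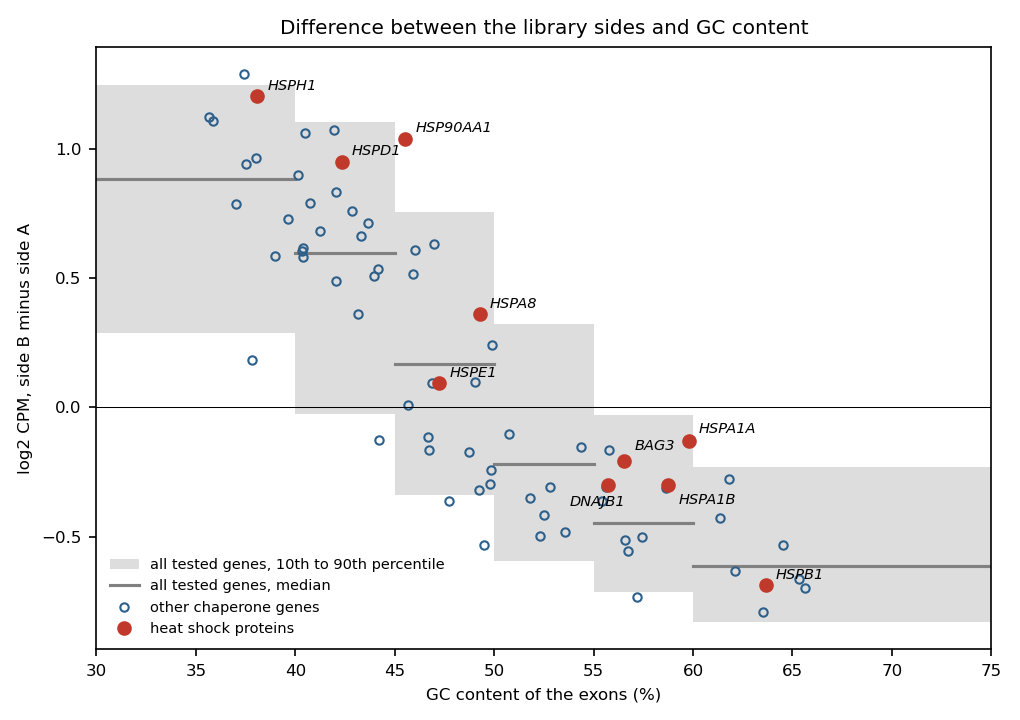
Difference in log2 CPM between the libraries of side B and side A (vertical axis) against the GC content of the annotated exons in percent (horizontal axis), for the 10 heat shock proteins (red) and the other chaperone genes (open circles), over the 10th to 90th percentile (grey) and the median (grey line) of all tested genes in each GC class. The heat shock proteins run from HSPH1 at the upper left to HSPB1 at the lower right. By the GC content of all its annotated exons HSP90AA1 lies above the grey area.

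Within the sides, the conditions were compared apart from the division into sides, but not free of the first principal component. On side A the APEX1-OE library had a score of -58.5 on it, against -32.7 and -31.1 for the Ctrl libraries. On side B the APEX1-OE libraries had 33.1 and 49.9 and the Ctrl library 39.2. Side A holds 1 APEX1-OE and 2 Ctrl libraries and side B 2 APEX1-OE and 1 Ctrl, so these are values with no test. HSPA8 was lower in APEX1-OE by both, at -0.59 log2 CPM on side A and -0.05 on side B, though by very different amounts. HSPA1B, at -0.17 and -0.18, and DNAJB1, at -0.10 and -0.06, were lower by similar amounts on both sides. HSPA1A was at 0.0083 on side A and -0.36 on side B. HSPH1 at -0.30 and 0.11, HSP90AA1 at -0.39 and 0.11 and HSPD1 at -0.37 and 0.09 had opposite signs on the sides, unlike HSPB1 at 0.21 and 0.02. BAG3 was at -0.08 and 0.04, and HSPE1 at -0.34 on side A and 0.0049 on side B.

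With the side as a term in the edgeR fit, 0 of 10 heat shock proteins were called, against 4 of all tested genes (0.0236%), and the standard errors shrank. The signs of HSPH1, HSP90AA1 and HSPD1 turned, to log2 fold changes of -0.09, -0.13 and -0.13, and that of HSPB1 to 0.11. HSPA8 had the largest change of the members, -0.32 (95% confidence interval -0.56 to -0.08, edgeR unadjusted p = 0.0129, adjusted p = 0.364). On side A, where APEX1-OE replicate 1 is the only APEX1-OE library, the difference was -0.59, and on side B it was -0.05. HSPA8 was the only member with an unadjusted p under 0.05, beside 1973 of all tested genes. The side was found in these counts, and the sides hold different numbers of each condition. The term also does not take up the different scores of the libraries within a side. These p values thus describe a fit and add no independent evidence.

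**Figure D4:**
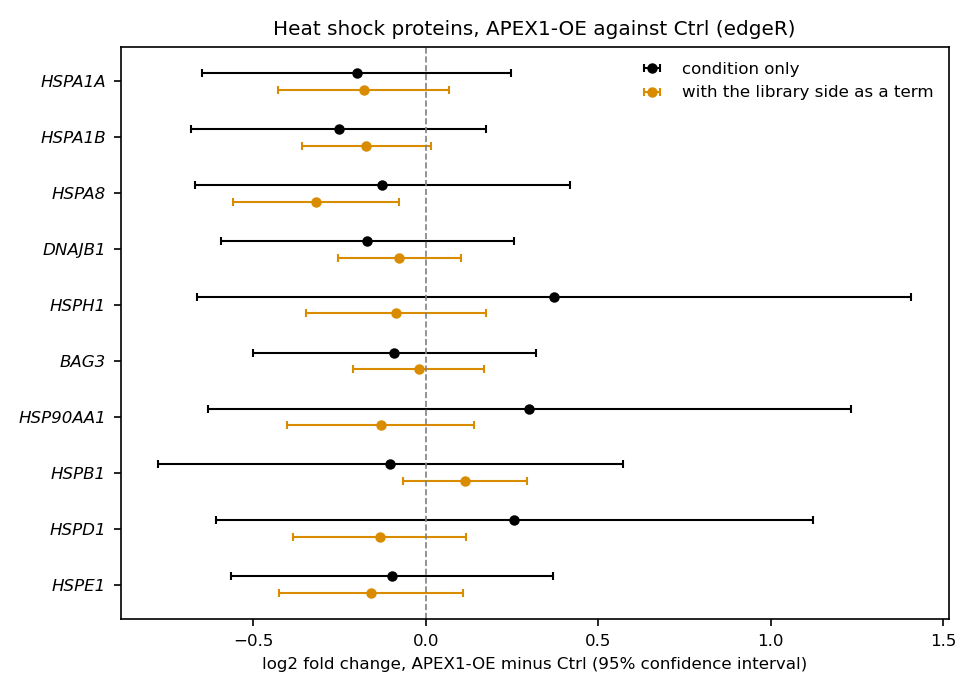
Log2 fold change of each heat shock protein, APEX1-OE minus Ctrl (horizontal axis), with its 95% confidence interval from edgeR, without (black) and with (orange) the library side as a term. Every black interval crosses 0, and of the orange intervals that of HSPA8 does not, with an adjusted p of 0.364.

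With the offset for GC content and exon length added to the side term, 0 of 10 members were called, against 20 of all tested genes (0.118%). The log2 fold changes of 10 of 10 members were negative, beside a median of 0.0068 over all tested genes. The share of all tested genes with a negative value was not counted. The side and the offset both come from these counts, so this fit is a description. At an unadjusted p under 0.05 the fit had 4 members, all lower in APEX1-OE, against 4.71% of all tested genes with that p and direction. They were HSPA1B at -0.28 (edgeR adjusted p = 0.139), HSPA1A at -0.30 (edgeR adjusted p = 0.238), HSPA8 at -0.29 (edgeR adjusted p = 0.278) and DNAJB1 at -0.16 (edgeR adjusted p = 0.346). These 4 were picked by their unadjusted p in this fit, so no shared role is read from them. Both HSPA1 genes share most of their sequence, so their values are not independent. The other 6 lay between -0.11 and -0.03.

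Other genes of the chaperone network, a list of 68 with the HSF factors, further HSP70, J, HSP90, BAG, small heat shock, TRiC and mitochondrial proteins and other HSF1 targets, were not called either. All 68 had a row, and 63 passed the filter on low counts. Of these, 0 of 63 were called or had an unadjusted p under 0.05 in edgeR's test, beside 118 of the 16971 tested genes at that p. DESeq2 and limma also called 0. DNAJA4, HSPB2, HSPB3, HSPB6 and HSPB7 did not pass the filter. With the side as a term, 11 of 63 had an unadjusted p under 0.05, beside 1973 of the 16971 tested genes, and 0 were called, the smallest adjusted p (edgeR) being 0.350. The log2 fold changes were positive for 34 and negative for 29, with a median of 0.02, beside 0.03 over all tested genes. Of the groups, the 12 tested HSP70 and HSP110 proteins had 7 positive and 5 negative values, the 8 subunits of TRiC, the cytosolic folding chamber, 4 and 4, and the 11 HSP90 proteins and cochaperones 6 and 5. The 8 J-proteins had 6 positive and 2 negative values and the 5 other HSF1 targets 1 and 4. The counts were 5 and 2 for the 7 BAG proteins and exchange factors, 1 and 2 for the 3 small heat shock proteins, 2 and 3 for the 5 mitochondrial chaperones and proteases and 2 and 2 for the 4 HSF genes and HSF regulators.

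HSF1, the factor that ties the members together, was at 283, 173 and 136 CPM in APEX1-OE replicates 1, 2 and 3 and 221, 209.9 and 139.8 CPM in Ctrl replicates 1, 2 and 3. It had a log2 fold change of 0.05 with a standard error of 0.31, and its values divided by side. HSF2, a relative that can join HSF1 in trimers, was at 4.29, 6.85 and 8.74 CPM in APEX1-OE replicates 1, 2 and 3 and 4.95, 5.65 and 7.16 CPM in Ctrl replicates 1, 2 and 3, with a log2 fold change of 0.16. The largest positive values in the list were those of DNAJB4, a J-protein, at 0.65 with a standard error of 0.455, and HSPA13, a microsomal HSP70, at 0.44 with a standard error of 0.416. The largest negative ones were those of HSPA2, best known from spermatogenesis, at -0.29 with a standard error of 0.175, and UBB, a polyubiquitin gene, at -0.22 with a standard error of 0.226. HSPA2 was at 53.8, 51.7 and 56.2 CPM in APEX1-OE replicates 1, 2 and 3 and 68.6, 65.0 and 63.7 CPM in Ctrl replicates 1, 2 and 3, and its groups did not overlap. Among the 63 genes this was also so for BAG1, an HSP70 exchange factor named after its values were seen, at 78.1, 76.3 and 80.4 CPM in APEX1-OE replicates 1, 2 and 3 and 94.9, 88.0 and 83.8 CPM in Ctrl replicates 1, 2 and 3. These 2 of 63 genes stand beside the 3.39% of all tested genes whose groups did not overlap.

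HSPH1 had the largest SD of log2 CPM among the members, and the 5 tested genes whose centred log2 CPM lay closest to its own over the 6 libraries were MON2, TTC3, TMOD3, ZBTB33 and LMAN1. Their root mean square differences to HSPH1 were between 0.0295 and 0.0397 on the log2 scale. These 5 genes have 36.3% to 40.3% GC in their exons, close to the 38.1% of HSPH1, and their side differences were between 1.18 and 1.23. HSP90AA1 ranked 427th and HSPD1 799th in likeness to HSPH1 among the tested genes. The points are 6 libraries that share the division into sides, so the likeness is a description.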

How the data were processed

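RNA-seq of A549 cells was taken from 6 libraries, 3 per condition, grouped by the labels. The authors deposited raw read counts per gene and FPKM per gene. According to the study's methods, adaptors and low-quality bases were trimmed, reads were aligned to GRCh38 with TopHat2, and uniquely mapped reads gave the counts and the FPKM. The sources used here do not give the counting tool, gene annotation or use of strand, and reads shared by near-identical or overlapping genes are thus uncertain.

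Counts were tested in R 4.3.3 with edgeR 4.0.16 (quasi-likelihood test, TMM, filterByExpr with a minimum count of 10 and a minimum total of 15, 16971 genes, Benjamini-Hochberg adjustment over all of them, threshold 0.05). Fits covered all 6 libraries. CPM are those counts over TMM-scaled library sizes. DESeq2 1.42.0 and limma 3.58.1 on log2(FPKM + 1) or log2(FPKM + 0.1) were alternatives. Further ones were edgeR fits with another scaling (RLE), no filter or a stricter one, each library left out, and the replicate number as a block. FPKM of single genes were compared by exact permutation. The side of the first principal component entered as a term, with or without an offset from a spline on exon GC content and length (GENCODE 44, hg38, 98.7% of tested genes). The main edgeR fit was also run on simulated counts that held no division into sides. That run does not bear on the side term, the offset, DESeq2 or limma. Python 3.11.15 searched the promoters and drew the plots.

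The members, lists, side term and offset were chosen with earlier results of these data known. Named genes were the 10 members, APEX1, HSF1, HSF2, network genes that were called, the 2 largest positive and 2 largest negative network values, and the 5 genes closest to the member of largest SD. No network gene was called, and HSPA6 and BAG1 were named outside this rule, after their values were seen. Depth was 28131955 to 41009197 counts, and the smallest count of a member in a library was 746.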

Additional observations from a re-analysis of the deposited data

How the results depend on the processing

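No heat shock protein was called under any of the 17 alternatives run, and none of the network genes was called either. The alternatives included DESeq2, limma on FPKM, RLE scaling and each library left out. CPM scaled by total counts were not tested. Leaving out single libraries gave log2 fold change ranges of -0.30 to 0.0660 for HSPA8 (positive without APEX1-OE replicate 1), -0.0496 to 0.64 for HSP90AA1 and -0.0451 to 0.56 for HSPD1 (both negative without APEX1-OE replicate 3), and -0.44 to 0.0586 for HSPB1, which was 0.0111 without replicate 2 of APEX1-OE, 0.0586 without replicate 3 of it and 0.0159 without replicate 1 of Ctrl. The other 6 members kept their sign when a library was left out, with sizes that moved: HSPH1 lay between 0.07 and 0.80, HSPA1A between -0.32 and -0.12, HSPA1B between -0.35 and -0.19, DNAJB1 between -0.27 and -0.12, BAG3 between -0.17 and -0.03 and HSPE1 between -0.29 and -0.0070. The offset for GC content and length without the side term kept all 10 signs but gave 0.08 for HSPH1, 0.07 for HSPD1, -0.04 for HSPB1 and -0.0132 for BAG3. The side term turned HSPH1 to -0.0867, HSP90AA1 to -0.13, HSPD1 to -0.13 and HSPB1 to 0.11, and with the offset added HSPH1 was -0.0427, HSP90AA1 -0.0471 and HSPD1 -0.0471. Sides did not overlap for 8 members in CPM (35.5% of tested genes higher and 30.9% lower on side B) and for 5 in FPKM (42.2% and 21.2%), an alternative chosen after seeing the data. Without the filter on low counts 10 genes were called in place of 1. The call of APEX1, the only gene called, was lost without APEX1-OE replicate 2 or 3 or Ctrl replicate 1 or 2, with 0 genes called each time by edgeR. Libraries that share a replicate number had deviations that correlated at 0.61, -0.52 and 0.70. Replicates 1 share a side and so do replicates 3, while replicates 2 lie on opposite sides. These values thus do not settle whether the numbers pair the libraries. The fit with the replicate number as a block called 0 members and 2 of all tested genes. At an unadjusted p below 0.05 (edgeR) it had 561 genes, against 118 in the main fit. With 3 libraries per condition, the intervals of HSPH1 (-0.66 to 1.41) and HSP90AA1 (-0.63 to 1.23) leave room for sizeable differences either way.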
